A study of Mus musculus with 6 samples.

Results

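The 10 genes described here encode early transcription factors of the AP-1, ATF and EGR families: Fos, Fosb, Fosl2, Jun, Junb, Jund, Atf3, Maff, Egr1 and Egr2. They were taken by name from a list drawn up for this work, each through the probe set that the array's annotation ties to that symbol alone, and all 10 were found, with 1 probe set each, among 19938 genes measured. RNA came from CD11b+Gr-1+ cells sorted out of the liver of C57BL/6 mice bearing EL4 tumours, which grow from a mouse T-cell lymphoma line, and the labels name these cells myeloid-derived suppressor cells. Both groups carried tumours, so no tumour-free animal is included. The control group received PBS and the other group type IV concanavalin A (Con A), a bean lectin used to provoke T-cell driven hepatitis in mice, and cells were taken 3 hours later. The Con A dose is not settled, since the design description has 12.5 mg/kg where the treatment entry has 12.5 ug/kg. The labels give 3 mice per group, and there are 3 arrays per group. They give no age or sex and no statement that each array holds 1 mouse, so the p-values measure the spread between these arrays, which may be technical in part. Gr-1 antibody binds both granulocytic and monocytic cells, and the sort therefore gives a mixture.

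AP-1 is a dimer of leucine zipper proteins that binds DNA at a short palindrome. Jun proteins pair with themselves or with Fos proteins, whereas Fos proteins need a partner; ATF3 and the small Maf protein MAFF belong to the same large class and have no strong activation domain of their own. EGR1 and EGR2 are zinc finger proteins. Many of these genes are immediate early genes: they are switched on within minutes by growth factors, cytokines, stress or adhesion, through kinases of the MAP kinase family and factors already in the cell, and their transcripts are often unstable. In myeloid cells they act in monocyte and macrophage differentiation and in the response to microbial products.

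Sequence around the start sites is shown for the 2 genes that passed the test, Fos and Maff, and for Atf3 and Egr2, which had the largest differences among the 8 members that did not pass. Each run gives 250 bases before and 50 after a start site in RefSeq, assembly GRCm38.p6, read 5′ to 3′ on the gene's strand. Capitals mark the core of the cAMP response element (CRE), TGACGT on either strand, and the CArG box, the element bound by serum response factor. Maff and Egr2 have several start sites, and the window shown is the first that holds a CRE core.
Fos, chr12:85473640-85473939, plus strand: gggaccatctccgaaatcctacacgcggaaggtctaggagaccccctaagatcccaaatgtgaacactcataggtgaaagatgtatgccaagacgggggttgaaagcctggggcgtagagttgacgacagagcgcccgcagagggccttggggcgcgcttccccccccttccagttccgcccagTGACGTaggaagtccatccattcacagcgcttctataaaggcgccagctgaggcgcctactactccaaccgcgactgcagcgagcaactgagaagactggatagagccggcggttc
Maff, chr15:79347270-79347569, plus strand: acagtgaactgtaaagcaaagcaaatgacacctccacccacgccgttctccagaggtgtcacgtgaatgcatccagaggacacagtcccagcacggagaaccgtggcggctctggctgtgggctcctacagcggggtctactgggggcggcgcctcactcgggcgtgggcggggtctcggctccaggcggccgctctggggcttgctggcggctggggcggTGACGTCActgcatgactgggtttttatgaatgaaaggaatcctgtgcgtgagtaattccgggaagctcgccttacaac
Atf3, chr1:191183284-191183583, minus strand: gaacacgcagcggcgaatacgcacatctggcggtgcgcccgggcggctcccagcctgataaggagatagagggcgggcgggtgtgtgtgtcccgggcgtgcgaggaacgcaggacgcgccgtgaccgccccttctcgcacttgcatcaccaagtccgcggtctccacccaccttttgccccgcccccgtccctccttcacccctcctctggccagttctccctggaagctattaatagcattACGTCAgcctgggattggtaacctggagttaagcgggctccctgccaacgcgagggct
Egr2, chr10:67537619-67537918, plus strand: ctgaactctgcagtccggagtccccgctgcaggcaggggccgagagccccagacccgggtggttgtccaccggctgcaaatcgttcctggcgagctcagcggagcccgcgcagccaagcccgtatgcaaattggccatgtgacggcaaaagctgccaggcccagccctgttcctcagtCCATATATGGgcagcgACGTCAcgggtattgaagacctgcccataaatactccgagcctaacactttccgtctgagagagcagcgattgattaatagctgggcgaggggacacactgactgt
In these runs the Maff window held the full 8-letter palindrome TGACGTCA, from 29 to 22 bases before the start site. The Fos core lay 66 to 61 bases before its start and the Atf3 core 8 to 3 bases before its start. In Egr2 a CArG box lay 72 to 63 bases and a CRE core 56 to 51 bases before the start. Over 15 windows of 9 members (several of Egr2 overlap, and Egr1 is not used here), the CRE core was found in 6 windows of 4 members, and in 7.51% of all 32851 windows. The full palindrome, which contains the core, was found in 1 member window and in 1.79% of all windows. The CArG box was found in 4 windows, all of Egr2, and in 1.63% of all windows. The AP-1 site TGACTCA was found in 0 of the 15 windows and in 5.2% of all windows. Only these exact letters were searched for, so other forms of the site were not counted. The EGR site GCGGGGGCG stood in the windows of Fosb and Fosl2 and in 2.91% of all windows. The NF-kB site stood in 5 windows, of Egr2, Fos, Fosb, Fosl2 and Maff, and in 8.46% of all windows, and the STAT element TTCNNNGAA in 1 window, that of Maff shown here, and in 8.3%. All motifs were read on both strands, and a match describes letters in a window, not binding. Sites more than 250 bases before a start were not searched for, so a gene without a match may still have one there.

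After Con A, Fos fell 1.67-fold and Maff rose 2.58-fold, and the other 8 early factors did not pass the test (limma, adjusted p under 0.05 over all genes). Thus 1 of 10 rose, against 4.59% of all genes, and 1 of 10 fell, against 7.22%. In either direction this was 2 of 10, against 11.8% of all genes. The size of the Maff rise is uncertain, since its level on PBS replicates 1 and 2 lay near or below the array medians. The groups did not overlap for 3 members, Fos, Maff and Jund, against 29.9% of all genes. Of these, 2 were higher after Con A, against 14.4%, and 1 was lower, against 15.6%. Without regard to the test, 8 members had a higher mean after Con A, with a median difference of 0.40 on the log2 scale over the 10 and 0.02 over all genes. The share of all genes with a higher mean is not given here, but their median lay above 0, so a higher mean was common. The counts that passed come from a fit that does not pair the arrays. With the replicate number as a block, 4 members rose (5.09% of all genes), Jund, Atf3 and Egr2 beside Maff, and Fos fell (7.64%). The labels do not say whether a number marks a pair. In the fit without a block, the number of members that rose depended on single arrays. It was 4 without PBS replicate 3, when Jun, Jund and Atf3 joined Maff and 5.59% of all genes rose. It was 1, Maff, without Con A replicate 1 (3.34% of all genes). It was 0 without PBS replicate 1 (2.3% of all genes), PBS replicate 2 (3.9%), Con A replicate 2 (2.82%) or Con A replicate 3 (2.8%). Fos was the member that fell in all 6 of these fits, in which 3.42%, 4.57% and 8.28% of all genes fell without PBS replicates 1, 2 and 3, and 4.88%, 3.56% and 4.62% without Con A replicates 1, 2 and 3.

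**Figure D1:**
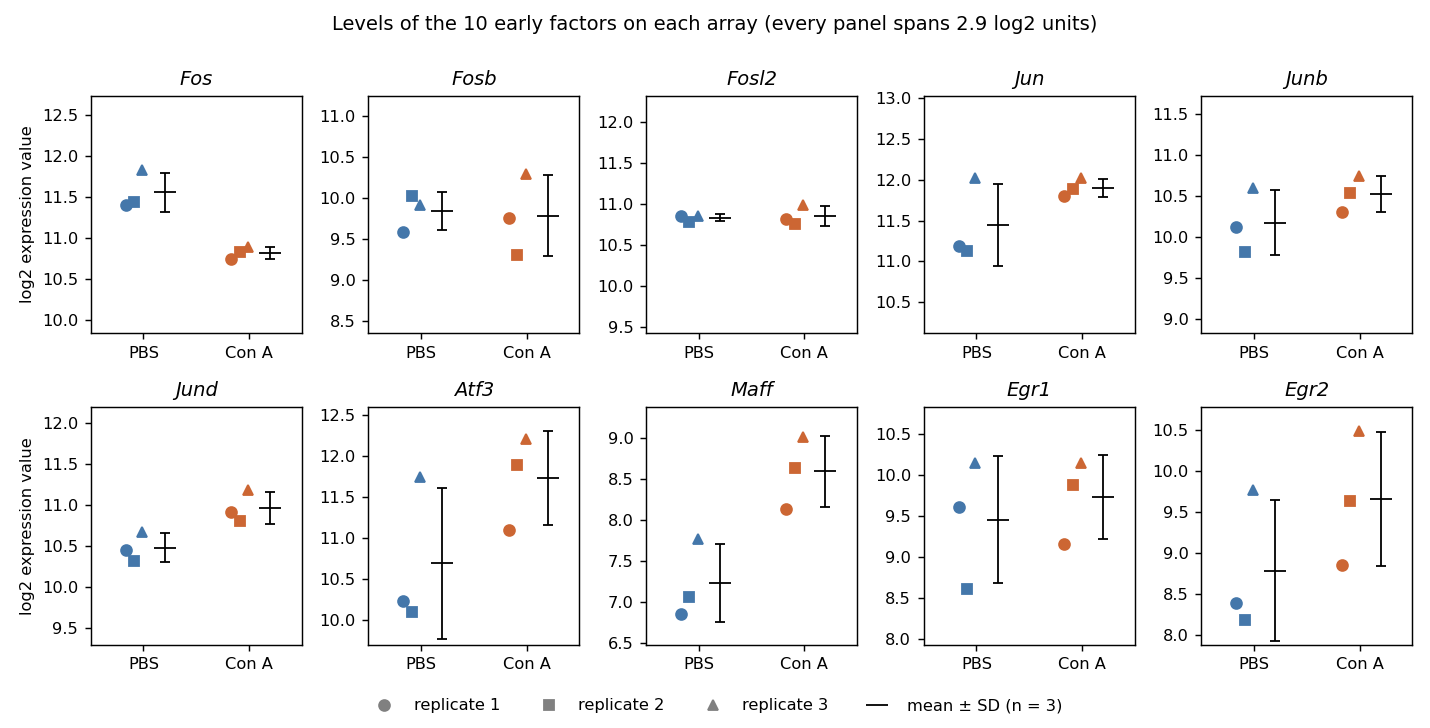
Log2 expression value of each early factor (vertical axis) on the 3 PBS and 3 Con A arrays, 1 symbol shape per replicate, with the mean ± SD (n = 3) beside each group. Fos lies lower on all Con A arrays, Maff and Jund lie higher on all of them, and for Atf3, Jun and Egr2 the triangle of PBS replicate 3 reaches into the Con A range.

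FOS is the founding Fos protein and forms AP-1 with a Jun partner. Its log2 level (probe set 10397346) was 11.41, 11.44 and 11.83 on PBS arrays 1, 2 and 3, and 10.74, 10.83 and 10.89 on Con A arrays 1, 2 and 3. Every Con A array lay below every PBS array, and the Con A arrays lay close together. The mean was 11.56 ± 0.24 (SD, n = 3) after PBS and 10.82 ± 0.07 (SD, n = 3) after Con A, so Fos fell by 0.74 (95% interval -1.03 to -0.45, limma adjusted p = 0.0093). It passed in all 6 fits with 1 array left out, with limma adjusted p from 0.00385 to 0.0441. In a sorted mixture, fewer cells of a type and less RNA per cell cannot be told apart. Of 7 measured monocytic markers 4 fell (Ccr2, Cx3cr1, F13a1 and Fn1) and 1 rose (Cd14), against 7.22% and 4.59% of all genes. The mean log2 level of these markers was 11.03 to 11.42 on the PBS arrays and 9.92 to 10.41 on the Con A arrays. With 1 array left out, 3 to 5 of them fell, and Cd14 lost its call without PBS replicate 1, Con A replicate 2 or Con A replicate 3. Their part in the fall of Fos was not tested.

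The genes of FOSB, the Fos relative known from neurons and bone, and FOSL2, also called FRA2, did not pass the test. The Fosb level was 9.58, 10.02 and 9.91 on the PBS arrays and 9.75, 9.30 and 10.29 on the Con A arrays. Con A replicates 2 and 3 held the lowest and highest of all 6 values, so the groups overlapped throughout. The difference was -0.06 (95% interval -0.62 to 0.50, limma adjusted p = 0.916). That interval overlaps the one of Fos, -1.03 to -0.45. Leaving out Con A replicate 3 gave -0.31, leaving out Con A replicate 2 gave 0.18, and leaving out PBS replicate 2 turned the sign as well. The Fosl2 level was 10.85, 10.78 and 10.86 after PBS and 10.82, 10.76 and 10.99 after Con A. The values spanned 0.08 over the PBS arrays, the narrowest PBS range of the 10 members, and 0.23 over the Con A arrays. Its difference was 0.02 (95% interval -0.17 to 0.22, limma adjusted p = 0.906).

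The 3 Jun proteins are the partners that Fos proteins need: JUN is a strong activator, while JUNB and JUND can restrain it. The level of Jund was 10.45, 10.31 and 10.66 after PBS and 10.91, 10.80 and 11.18 after Con A. The groups did not overlap, and the spread was similar in both, at 0.18 and 0.19 (SD, n = 3 each). The difference of 0.49 (1.40-fold, 95% interval 0.19 to 0.79) stood at the threshold, with a limma adjusted p of 0.0505. Without PBS replicate 3 it was 0.58 and passed, with a limma adjusted p of 0.0217, and it missed the threshold without any 1 of the other 5 arrays.

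The Jun level was 11.18, 11.13 and 12.02 after PBS and 11.80, 11.89 and 12.02 after Con A. PBS replicate 3 stood as high as the highest Con A array, while PBS replicates 1 and 2 lay below all of them. The difference was 0.46 (95% interval -0.07 to 0.98, limma adjusted p = 0.269), and it was 0.74 with an adjusted p of 0.00251 without PBS replicate 3. Without PBS replicate 2 it was 0.30. The Junb level was 10.13, 9.81 and 10.59 after PBS and 10.30, 10.54 and 10.74 after Con A. PBS replicate 3 again lay inside the Con A range. The difference was 0.35 (95% interval -0.12 to 0.82, limma adjusted p = 0.349).

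MAFF is a small Maf protein that pairs with itself, with other small Mafs, or with CNC proteins such as NRF2 and BACH1. Its level (probe set 10425283) was 6.85, 7.06 and 7.76 after PBS and 8.14, 8.63 and 9.01 after Con A. The lowest Con A array lay above the highest PBS array. The mean was 7.23 ± 0.48 (SD, n = 3) after PBS and 8.59 ± 0.44 (SD, n = 3) after Con A, a rise of 1.36 (95% interval 0.71 to 2.02, limma adjusted p = 0.0206). With 1 array left out the difference stayed between 1.16 and 1.63. The call was lost without PBS replicate 1 (limma adjusted p = 0.0859), PBS replicate 2 (0.0592), Con A replicate 2 (0.0867) or Con A replicate 3 (0.0667). Eosinophil, basophil and mast cell markers had higher means after Con A, and the groups did not overlap for 4 of the 8, against 29.9% of all genes. Of 8 measured 3 rose (Epx, Prg2 and Siglecf), against 4.59% of all genes. The mean log2 level of the 8 was 7.99, 8.68 and 8.45 on PBS arrays 1, 2 and 3, and 9.40, 8.67 and 9.70 on Con A arrays 1, 2 and 3. The rising count was 5 when Con A replicate 2 was left out and 0 for PBS replicate 1, PBS replicate 3, Con A replicate 1 or Con A replicate 3. Their part in the rise of Maff was not tested.

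ATF3 is a stress-induced factor that represses many inflammatory genes in macrophages. The Atf3 level was 10.23, 10.10 and 11.74 after PBS and 11.09, 11.89 and 12.20 after Con A. PBS replicate 3 exceeded Con A replicate 1, and the PBS arrays spanned 1.65 on the log2 scale, the widest PBS range among the 10. The difference of 1.04 (2.05-fold, 95% interval -0.04 to 2.12) did not pass, with a limma adjusted p of 0.221. Without PBS replicate 3 it was 1.57, with a limma adjusted p of 0.0114. The other arrays moved it less: leaving out PBS replicate 2 gave 0.74, leaving out Con A replicate 1 gave 1.36, and it missed the threshold in each of those 5 fits.

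EGR1 and EGR2 bind the same GC-rich site, and both act in monocyte and macrophage differentiation. The Egr2 level was 8.39, 8.18 and 9.77 after PBS and 8.85, 9.63 and 10.48 after Con A. PBS replicate 3 lay above Con A replicates 1 and 2. The difference was 0.87 (95% interval -0.31 to 2.06, limma adjusted p = 0.353), and it passed in 0 of 6 fits with 1 array left out. Leaving out Con A replicate 3 gave 0.46, and leaving out PBS replicate 3 gave 1.37. The Egr1 level was 9.61, 8.61 and 10.14 after PBS and 9.16, 9.88 and 10.15 after Con A. The highest array of each group stood at nearly the same level. The difference was 0.27 (95% interval -0.66 to 1.21, limma adjusted p = 0.737), and its sign changed without PBS replicate 2, to -0.15.

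**Figure D2:**
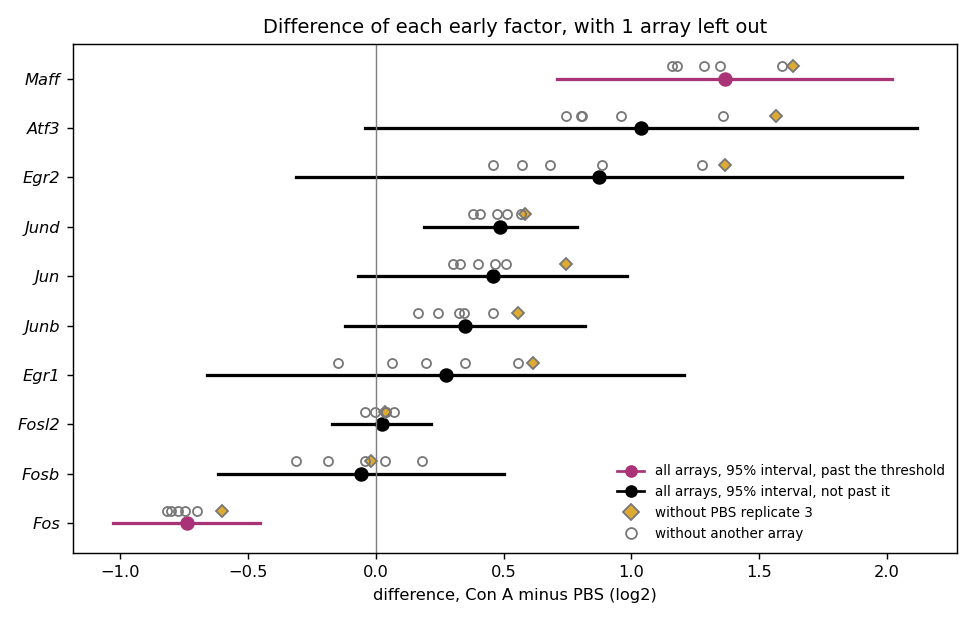
Difference in log2 level, Con A minus PBS (horizontal axis), for each early factor, with its 95% interval from limma as a line and the differences with 1 array left out as small symbols above it. The interval of Fos lies below 0 and those of Maff and Jund above 0, although Jund did not pass after adjustment, and leaving out PBS replicate 3 (diamonds) gives the highest difference for all members but Fosb and Fosl2.

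Responses within a family were set against each other array by array, in 7 pairs, with the exact two-sided permutation test, which cannot go below 0.10 with 3 arrays against 3. Fos responded 0.76 lower than Fosl2 on the log2 scale. The groups did not overlap in that comparison (exact permutation p = 0.1, adjusted p = 0.35 over the 7 pairs). Egr1 responded 0.60 lower than Egr2, also without overlap between the groups (exact permutation p = 0.1, adjusted p = 0.35). Fos responded 0.68 lower than Fosb, and here the arrays overlapped (exact permutation p = 0.2, adjusted p = 0.467). The 3 Jun genes differed from each other in response by 0.03 to 0.14, with overlap in each pair (exact permutation p from 0.5 to 1.0). Since this test cannot pass 0.05 with 3 arrays against 3, its p-values do not show whether responses within a family differ or are alike.

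The early factors varied together across arrays within a group. PBS replicate 3 was the highest PBS array for 9 of the 10, all but Fosb, and Con A replicate 3 the highest Con A array for all 10. Over all genes these arrays were the highest of their group in 32.6% and 29.2%. Averaged over the 10 members, PBS replicates 1, 2 and 3 lay at -0.18, -0.30 and 0.48 from the PBS mean, and Con A replicates 1, 2 and 3 at 0.11, 0.37 and 0.75. PBS replicate 3 thus stood above Con A replicates 1 and 2. The median of all genes lay between -0.015 and 0.041 from the PBS mean on the 6 arrays. Heat shock genes, which encode chaperones and rise with cell stress, moved on the same array. All 11 measured had their highest value of the 6 arrays in PBS replicate 3, where their mean was 10.55, against 9.73 in each of the other PBS arrays and 9.42 to 9.97 on the Con A arrays. The shares of 32.6% and 29.2% are for the highest array within a group, and no share of all genes over the 6 arrays is given here. Hspa1a, an inducible HSP70 gene, was 10.56, 10.65 and 12.28 after PBS and 9.49, 10.04 and 10.47 after Con A. Between the groups 0 of the 11 passed (limma; 3 at an unadjusted p under 0.05), with Hspa1a at -1.17 (95% interval -2.25 to -0.08, limma adjusted p = 0.173), and 1 fell without Con A replicate 3. Unlike the 11 heat shock genes, Maff and Jund stayed lower in PBS replicate 3 than on any Con A array. The highest of the 6 arrays was Con A replicate 3 for 8 of the 10 early factors and for 0 of the heat shock genes. Of the other 2, Fos was highest in PBS replicate 3, and Jun stood at 12.02 both there and on Con A replicate 3. What the stress genes contribute to the level of the early factors in PBS replicate 3 was not tested.

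**Figure D3:**
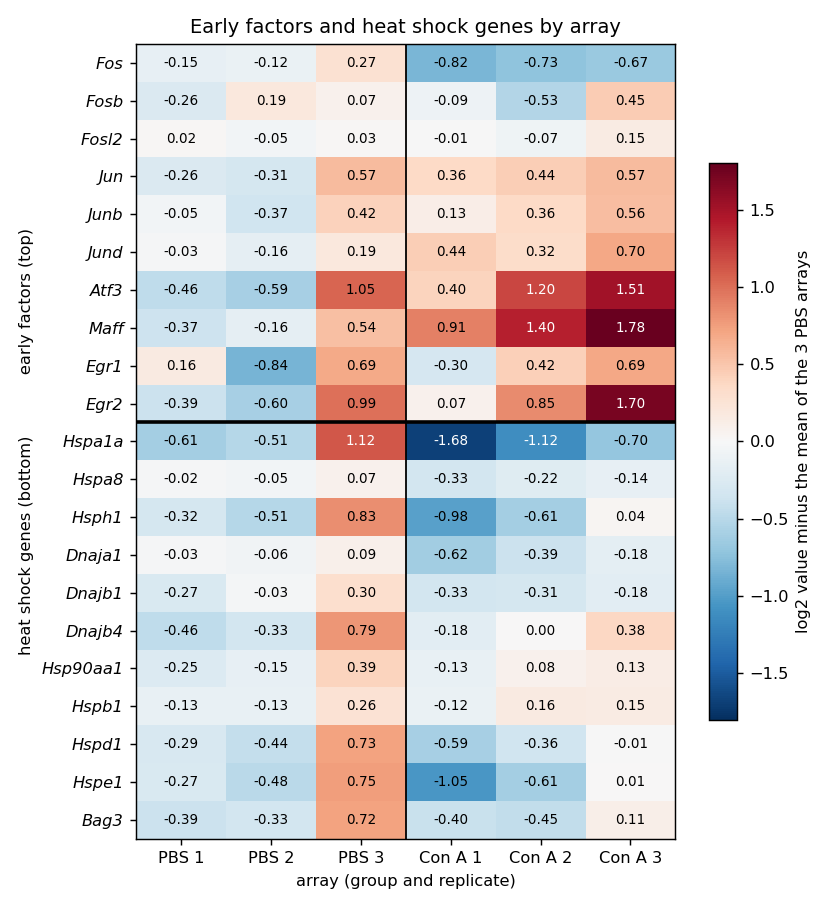
Log2 value minus the mean of the 3 PBS arrays (colour and printed number) for the 10 early factors, above the black line, and 11 heat shock genes, below it, on each array. In the column of PBS replicate 3 all heat shock genes and all early factors are above 0, and on the Con A arrays Maff, Atf3, Jun, Junb, Jund and Egr2 are above 0 while Fos is below it.

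Other factors of the leucine zipper class changed in both directions. Of 18 measured partners and relatives 4 rose and 3 fell, with a median difference of 0.15. Over all genes 4.59% rose and 7.22% fell, and the counts of all lists below stand beside those shares. Batf2, an interferon-induced relative that pairs with Jun proteins, rose by 1.91 from 7.36 ± 0.15 to 9.27 ± 0.41 (SD, n = 3 each; limma adjusted p = 0.00152). Nfil3, a repressor with roles in innate lymphocytes, rose by 1.21 (limma adjusted p = 0.0167; 0.075 when PBS replicate 1 was left out, 0.0747 for Con A replicate 2 and 0.0647 for Con A replicate 3). Cebpa, which drives granulocyte and monocyte development, fell by 1.07 (limma adjusted p = 0.0015). The count that rose was 6 when PBS replicate 3 was left out, 2 for PBS replicate 2, and 1 for PBS replicate 1, Con A replicate 2 or Con A replicate 3, and the count that fell stayed at 3 or 4.

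Of 15 ATF and CREB genes 1 rose and 0 fell, with a median of 0.06. It was Crem, whose short products repress cAMP-responsive genes, at 6.90, 6.97 and 7.04 after PBS and 7.87, 7.99 and 7.98 after Con A. The groups stood far apart against their spread of 0.07 each, and the rise was 0.98 (95% interval 0.80 to 1.16, limma adjusted p = 0.000808). The level of Crem after PBS lay below the median of every array, so its expression there is not established. A second gene of the list passed without PBS replicate 3, where 2 rose, and 1 fell without Con A replicate 3. Of 5 EGR relatives and co-repressors 1 rose and 0 fell, with a median of 0.14. It was Nab1, which encodes a co-repressor of EGR proteins, by 0.67 from 10.69 ± 0.17 to 11.36 ± 0.04 (SD, n = 3 each; limma adjusted p = 0.00554), and it was the count of 1 in each of the 6 fits with 1 array left out.

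Upstream of Fos, serum response factor acts with ternary complex factors of the ELK group and with the actin-sensing coactivators MRTFA and MRTFB. Of these 6 genes 2 fell and 0 rose, with a median of -0.25. Elk3, a ternary complex factor that can repress, was 10.32, 10.40 and 10.23 after PBS and 8.76, 8.84 and 9.03 after Con A. It fell by 1.44, or 2.72-fold (95% interval -1.66 to -1.22, limma adjusted p = 0.000545). Mrtfa fell by 1.39 from 10.97 ± 0.14 to 9.59 ± 0.21 (SD, n = 3 each; limma adjusted p = 0.0012). Both passed with any 1 array left out, with limma adjusted p of at most 0.00664 for Elk3 and 0.0108 for Mrtfa. Srf itself differed by -0.28 (limma adjusted p = 0.163), and without PBS replicate 3 the count that fell was 3.

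Of 15 measured MAP kinases and their activators 3 rose and 1 fell, with a median of -0.17. Map3k8, the kinase TPL2 that links Toll-like receptors to ERK, rose by 0.58, Mapkapk2, the p38 target that stabilises cytokine transcripts, by 0.45, and Map3k1, which activates JNK, fell by 0.56 (limma adjusted p = 0.0334, 0.0136 and 0.0175). Map3k8 lost its call without PBS replicate 1, PBS replicate 2, Con A replicate 2 or Con A replicate 3, with limma adjusted p up to 0.128. Mapkapk2 lost it without PBS replicate 1, Con A replicate 2 or Con A replicate 3 (up to 0.0639), and Map3k1 without PBS replicate 1 (0.0738). The rising count of the list was 1 when PBS replicate 2 was left out and 0 for PBS replicate 1, Con A replicate 2 or Con A replicate 3. Its falling count was 3 when PBS replicate 3 was left out and 0 for PBS replicate 1. Of 12 feedback genes of these kinases 3 rose and 1 fell, with a median of 0.21. Dusp6, a phosphatase that turns off ERK and is itself an ERK target, fell by 1.39 from 12.20 ± 0.23 to 10.80 ± 0.04 (SD, n = 3 each; limma adjusted p = 0.000933). Dusp10 and Dusp16, phosphatases of JNK and p38, rose by 1.24 and 1.07 (limma adjusted p = 0.0186 and 0.015). Both calls were lost without PBS replicate 1 or Con A replicate 3, that of Dusp10 also without PBS replicate 2 or Con A replicate 1, and that of Dusp16 also without Con A replicate 2, with limma adjusted p up to 0.0725. The rising count was 1 without PBS replicate 1 or Con A replicate 3, and 2 without PBS replicate 2 or Con A replicate 2. When Con A replicate 3 was left out, 2 fell.

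Among 25 other immediate early genes 4 rose and 1 fell, with a median of 0.13. Ier3, a survival gene of stressed cells, rose by 1.44 from 8.37 ± 0.63 to 9.81 ± 0.19, and the polo-like kinase gene Plk3 rose by 1.00 from 10.53 ± 0.41 to 11.53 ± 0.24 (SD, n = 3 each; limma adjusted p = 0.0178 and 0.023). Both calls were lost without PBS replicate 1, Con A replicate 2 or Con A replicate 3, and that of Plk3 also without PBS replicate 2, with limma adjusted p up to 0.0999. Myc, the growth regulator, rose by 0.96 (limma adjusted p = 0.0404) and passed in 1 of 6 fits with 1 array left out, the fit without PBS replicate 3. As with the early factors, PBS replicate 3 was the highest PBS array for 22 of the 25. The rising count was 10 when PBS replicate 3 was left out, and 2 fell in that fit. It was 3 for Con A replicate 1, 2 for PBS replicate 2, and 0 for PBS replicate 1, Con A replicate 2 or Con A replicate 3.

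Genes that the AP-1 and EGR literature names as targets were mostly higher where they changed. Of 19 measured 8 rose and 3 fell, against 4.59% and 7.22% of all genes, with a median of 0.49. Mmp13, collagenase 3, was 6.33, 6.25 and 6.47 after PBS and 7.78, 9.74 and 8.57 after Con A. It rose by 2.35 on the log2 scale (limma adjusted p = 0.0125), and the call was lost without PBS replicate 1 (limma adjusted p = 0.0609). F3 and Il6 rose by 3.19 and 2.93. After PBS, Mmp13 and Il6 lay below the median of every array on all 3 arrays, and so did the mean of F3, so their expression there is not established and the sizes of these rises are uncertain. Il2, another of the 8 that rose, lay below those medians in both groups, at 5.684 to 5.825 after PBS and 6.405 to 6.513 after Con A. Its expression is not established in either group. The 3 that fell were Mmp9, Plau and Nqo1, by 0.58, 0.78 and 0.44, which encode gelatinase B, urokinase and a quinone reductase. The falling count was 1 without PBS replicate 1, PBS replicate 2, Con A replicate 1 or Con A replicate 2, and 2 without either of the other arrays. These genes answer to many other factors, and the list does not measure AP-1 activity.

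**Figure D4:**
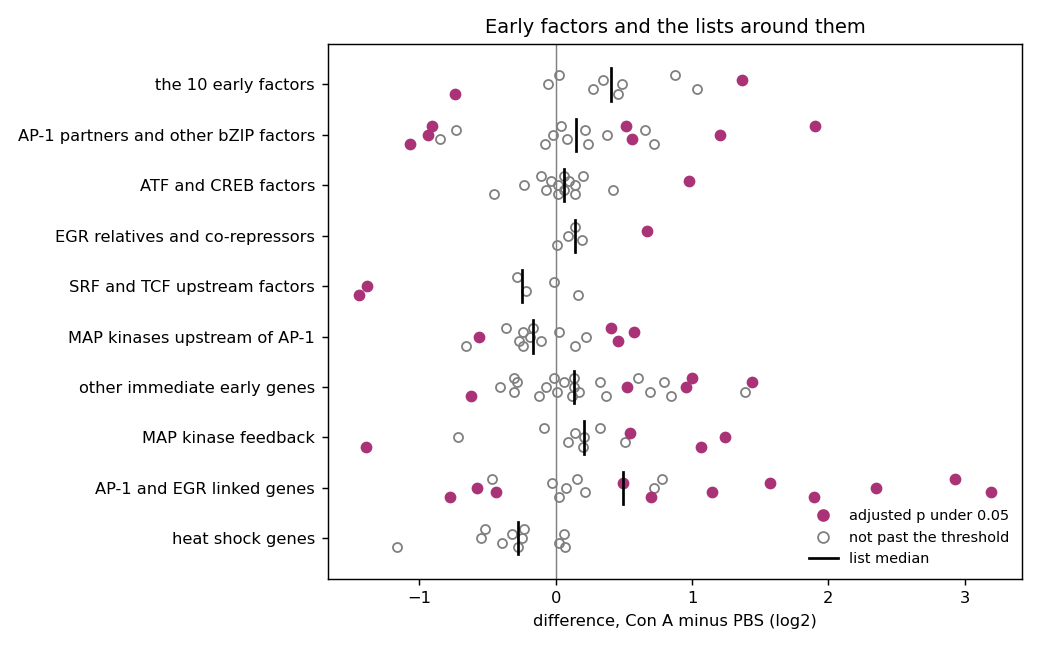
Difference in log2 level, Con A minus PBS (horizontal axis), for every measured gene of the early factors and 9 lists around them, with filled points for limma adjusted p under 0.05 and a bar at each list's median. Both filled early factors lie at the ends of their row, Fos lowest and Maff highest. The partner, MAP kinase, other immediate early, feedback and target rows have filled points on both sides of 0.

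The genes most like Fos and Maff were sought among 18263 named genes, by the root mean square distance between values over the 6 arrays after each gene's mean was taken off. Nearest to Fos were Gusb, which encodes the lysosomal enzyme beta-glucuronidase, at a distance of 0.044, Dguok, a mitochondrial nucleoside kinase gene, at 0.054, and Aco1, the cytosolic aconitase gene, at 0.055. Gusb and Dguok fell by 0.75 and 0.78 (limma adjusted p = 0.00575 and 0.00289). Nearest to Maff were Rgl1, a Ral exchange factor gene, at 0.109, Mcoln2, an ion channel gene, at 0.139, and St7 at 0.143. Rgl1 rose by 1.31 (limma adjusted p = 0.00915). These distances over 6 arrays in 2 groups are a description.

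The sort carried high granulocyte signal in both groups. The mean log2 level of 10 granulocytic markers, Ly6g among them, was 13.32 to 13.45 on the PBS arrays and 13.37 to 13.39 on the Con A arrays, and 0 of 10 passed (limma; 0 at an unadjusted p under 0.05). Each of the 10 had a higher mean level than at least 99.1% of all genes, near the top of the scale. That 0 passed does not show that the granulocyte share was equal in the groups. The mean of 7 T-cell markers, which EL4 cells also could carry, was 6.47 to 6.55 on the PBS arrays and 6.43 to 6.58 on the Con A arrays, below the median of every array. Single markers differed. Trat1, at 4.03 to 4.31, lay below the medians on all 6 arrays, as did Cd3d and Cd3g. Cd3e (7.12 to 7.36), Cd5 (7.17 to 7.51) and Thy1 (7.21 to 7.60) lay near or above them, and Cd2 on both sides. The mean therefore does not show that such cells are absent. Of 6 Kupffer cell markers 0 passed (limma; 0 at an unadjusted p under 0.05), with means of 7.64 to 8.15 after PBS and 7.74 to 9.49 after Con A, highest on Con A replicate 2. Of 4 platelet and erythroid markers 1 rose, with means of 6.82 to 6.92 after PBS and 7.02 to 8.08 after Con A, and 3 rose when Con A replicate 1 was left out. Markers of NK cells, dendritic cells, hepatocytes and endothelial with stellate cells had 0 genes past the limma threshold (1, 0, 0 and 0 at an unadjusted p under 0.05), and 2 NK cell markers rose when Con A replicate 2 was left out. On Con A replicate 2 the hepatocyte mean was 8.58, against 7.66 to 7.77 after PBS and 7.72 on each other Con A array. Alb there was 11.17, against 8.69 to 9.09 after PBS. The endothelial and stellate mean was also highest there, at 6.94, and the NK cell mean lowest, at 6.80. A high level on 1 array need not pass the test, so these counts do not show that such cells are absent. Of 4 B-cell markers 1 fell, a count that was 3 when PBS replicate 3 was left out and 0 for PBS replicate 1, PBS replicate 2, Con A replicate 1 or Con A replicate 2. What any of these cells add to the early factor values was not tested.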

How the data were processed

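RNA of sorted CD11b+Gr-1+ liver cells was amplified with a whole-transcriptome kit, biotin-labelled and hybridised to an Affymetrix mouse gene array, 3 arrays per group, per the labels' protocols. The values used are the deposited table's, on the log2 scale, and the submitters' processing notes name RMA and Partek without versions. RMA combines background correction, quantile normalization and a summary over probes, so levels are relative. No genome build is needed for these values. There were 0 identical pairs of arrays.

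Of 35556 rows, 21789 had 1 gene symbol, 1621 several and 12146 none. Each gene was read from its brightest row, taken as the mean of the 6 arrays, which left 19938 genes. Entrez gene numbers, looked up in the RefSeq gene table (GRCm38.p6), changed 0 symbols. The number of 91 rows had no match there, and these rows kept the symbol of the array's annotation. In the lists, 3 entries were matched through older symbols. The groups were compared in R 4.3.3 with limma 3.58.1, through lmFit and a two-sided moderated test from eBayes, and p-values were adjusted by Benjamini-Hochberg across the 19938 genes. The fit was tested on simulated data. Python 3.11.15, scipy 1.17.1 and matplotlib 3.10.9 were used for exact tests and plots.

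The members, the 9 context lists and the 11 marker lists were chosen with earlier results of these data known, and no list was given a test of its own. Named genes were all members, up to 3 genes per context list with the largest difference among those past the threshold without overlap (or, where none passed, the largest difference as a value), and 3 genes most like each member past the threshold, leaving out predicted genes and small RNAs. The alternatives were other array scales, all rows or averaged rows, a level filter, other variance models, array weights, the replicate number as a block and each array left out.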

Additional observations from a re-analysis of the deposited data

How the results depend on the processing

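Adjusted p-values here are limma's. Fos kept its direction in all 15 alternatives and its call in 14; in the unmoderated test it stood at -0.74 with an adjusted p of 0.0862. Maff kept its direction in all 15 and its call in 10, and stood at 1.36 with an adjusted p of 0.151 in the unmoderated test. With that test 0 members rose and 0 fell, while 290 of all genes rose and 381 fell, 671 in all. Jund passed with quantile normalization (0.51, adjusted p = 0.0338; 4.83% of all genes rose), with genes above the median level (0.49, 0.0399; 8.89%), with trend and robust (0.49, 0.0434; 4.47%) and with array weights (0.55, 0.0202; 5.68%), which gave 2 members that rose in each. Fosb stood at 0.0054 with array weights. With 1 array left out, members that rose ranged from 0 to 4, members that fell stayed at 1, and genes called over all genes ranged from 1140 to 2765. The differences ranged from -0.82 to -0.60 for Fos, -0.31 to 0.18 for Fosb, -0.043 to 0.071 for Fosl2, 0.30 to 0.74 for Jun, 0.17 to 0.56 for Junb, 0.38 to 0.58 for Jund, 0.74 to 1.57 for Atf3, 1.16 to 1.63 for Maff, -0.15 to 0.62 for Egr1 and 0.46 to 1.37 for Egr2. The sign turned for Fosb without PBS replicate 2 (0.036) or Con A replicate 2, for Fosl2 without PBS replicate 2 (-0.0023) or Con A replicate 3, and for Egr1 without PBS replicate 2. The cause of these changes was not tested.

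The titles number the arrays 1 to 3 in both groups, without saying that a number marks a shared day or litter. Deviations from the group means over all genes correlated at 0.228, -0.17 and 0.555 for numbers 1, 2 and 3. PBS replicates 1 and 3 correlated best with the Con A array of their own number, though PBS replicate 1 stood at 0.212 with Con A replicate 2. For PBS replicate 2 the best was Con A replicate 1, at 0.538. Over the 10 members alone, numbers 1, 2 and 3 correlated at 0.397, -0.786 and 0.6. There PBS replicate 3 correlated best with Con A replicate 2, at 0.676. Deviations within a group of 3 arrays depend on each other, so these correlations do not settle whether the numbers pair the arrays. The standard error of Maff was 0.28 without a block and 0.099 with it, and that of Fosl2 0.083 and 0.087. With the replicate number as a block, 4 members rose (5.09% of all genes) and 1 fell (7.64%), and 2539 genes were called in place of 2355. Jund (0.49, adjusted p = 0.0117), Atf3 (1.04, 0.0311) and Egr2 (0.87, 0.025) passed in that fit. With 3 arrays per group and no detection calls, the number of arrays limits the precision, and members whose intervals span 0 may have changed by any amount inside them.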
